A study of Mus musculus with 30 samples.

Results

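F4/80-positive cells sorted from the spleen were compared with F4/80-positive cells sorted from the bone marrow of mice that had Mif and no leukaemia. The comparison took the arrays titled WT-nl-SP (wild type, no leukaemia, spleen) and WT-nl-BM (the same for bone marrow), 3 of each, so 6 of the 30 bead arrays of the series, and covered all 11937 genes kept after a filter on detection. Both groups were C57BL/6 mice, labelled as 10 to 15 months old, with the genotype TCL1+/wt Mif+/+. Every mouse therefore carried the Eµ-TCL1 transgene, in which the Eµ enhancer drives the human TCL1 oncogene in B cells, and neither group held mice without that transgene. Cells were selected by flow cytometry on F4/80, the surface protein encoded by Adgre1, and lysed straight after the sort. The labels do not say whether a spleen array and a marrow array came from 1 mouse, or that arrays of a group came from separate mice, so the p-values below measure the spread between arrays, which may be technical. The same tissue comparison served as a reference in non-leukaemic Mif knockout mice (TCL1+/wt Mif-/-, 3 arrays each, also labelled as 10 to 15 months old). A further reference was leukaemic wild-type mice (3 spleen and 5 marrow arrays, labelled as 2 to 5 months old). All 30 arrays, those of leukaemic knockout mice included, entered 1 fit. They therefore shaped the estimate of spread behind the standard errors and p-values below.

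The red pulp of the spleen filters blood, and its macrophages take up worn-out red cells, break down haem and return the iron. Their development in mice depends on the transcription factor Spic. Macrophages of the bone marrow sit among dividing blood precursors, clear expelled erythroid nuclei, and form the centre of erythroblastic islands. F4/80 is also carried by monocytes and eosinophils, so a sort on F4/80 can hold several myeloid types.

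Levels are normalised log2 intensities, each given in the order of replicates 1, 2 and 3, and a difference is the spleen mean minus the marrow mean with its standard error, so that 1 on this scale is 2-fold. The median raw intensity of the 6 arrays was 77.0 to 85.4, and 16527 to 18259 probes were detected on each. Adgre1 stood at 9.94, 9.85 and 10.15 in spleen and at 9.97, 10.07 and 9.24 in marrow, a difference of 0.22 ± 0.55 (adjusted p = 0.889, limma). The macrophage markers Csf1r, Mertk and Fcgr1 were detected on all 6 arrays as well. Mif was 10.41 to 12.26 in spleen and 10.58 to 11.51 in marrow, and 4.18 to 5.02 on the 6 non-leukaemic knockout arrays, which matches the genotype labels.

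Spleen replicate 1 stood apart from the other arrays. Its values correlated at 0.906 to 0.919 with the other spleen arrays and at 0.878 to 0.884 with the marrow arrays, whereas the other spleen arrays correlated at 0.943 to 0.951 with marrow and the marrow arrays at 0.977 to 0.994 with each other. It was also the only one of the 6 with a high level of Xist, the RNA of the inactive X chromosome, at 11.73 against 4.10 to 4.38 on the other 5, and it lacked the Y-linked Eif2s3y, at 4.13 against 9.38 to 9.82. The labels do not give the sex of the mice. By these genes spleen replicate 1 came from a female and the marrow arrays from males, so it cannot share a mouse with any marrow array. Sex-linked levels and overall correlation thus set the same spleen array apart, their parts in the results cannot be told apart, and the medians of the gene lists below are given with and without it.

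Of the 11937 genes, 461 (3.86%) differed between spleen and marrow at an adjusted p under 0.05 in limma, and 2394 (20.1%) at an unadjusted p under 0.05. Among them 215 (1.8%) were higher in spleen, with a median difference of 1.12, and 246 (2.06%) were lower in spleen, with a median of -1.62. At least 2-fold differences were seen for 121 of the higher and 181 of the lower genes. All 3 spleen arrays lay above all 3 marrow arrays for 197 of the 461 genes and below them for 240, against 11.9% and 13.5% of all genes tested. The 2 groups overlapped for the other 24. Genes called on these arrays tend to separate on them, so the separation is no separate support. The count depended on single arrays. It was 13 without spleen replicate 1 (0.109% of genes), 853 without spleen replicate 2, and 26, 144 and 86 without marrow replicates 1, 2 and 3. All 461 genes kept their direction in each of these fits. The arrays left in had also given the calls, so that direction was largely set by the choice of genes. Slide was inferred from the array code in each sample title, and arrays with the same code number were taken to share a slide. The slide numbers were assigned here and are not in the titles. By this reading slides 2 and 4 each held 1 array of either tissue. Within them 461 and 449 of the called genes had the same direction. These arrays also gave the calls, so the direction within a slide was largely set by the choice of genes. It is no separate support. With slide as a fixed block 737 genes were called. In a fit of the compared arrays only, 306 genes were called, and 126 of them were among the 461. As a base for the list counts below, 6112 of the 11937 genes lay above 0 and 5825 below, and 1.8% and 2.06% were called higher and lower. Among the members of the gene lists described below, Spic, Dusp2 and Tlr11 were the only genes called without spleen replicate 1.

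**Figure D1:**
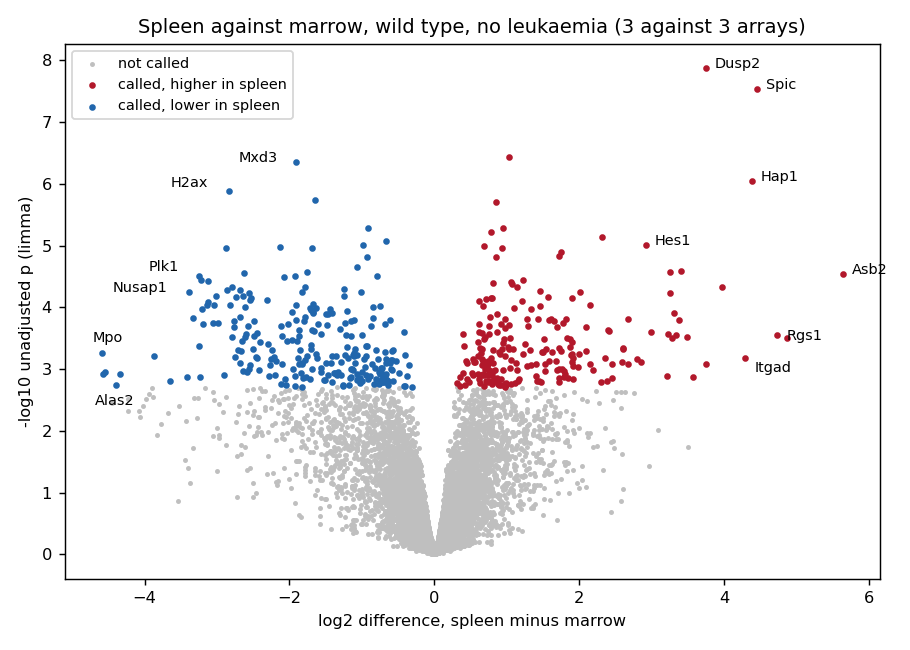
Each point is a gene, with the log2 difference (spleen minus marrow) on the x axis and -log10 of the unadjusted limma p on the y axis. The 215 genes called higher in spleen are red and the 246 called lower are blue, and Dusp2 and Spic lie highest.

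The genes with the largest excess in spleen were led by Asb2, which encodes the substrate-binding part of a cullin ubiquitin ligase. Asb2 stood at 12.83, 6.19 and 11.29 in spleen and at 4.46, 4.57 and 4.37 in marrow, a difference of 5.63 ± 1.10 (adjusted p = 0.0114, limma). All spleen arrays were above marrow, but replicate 2 by far the least, and without spleen replicate 1 the difference was 4.27 (adjusted p = 0.0807). Spic was at 10.77, 8.17 and 9.02 in spleen and at 4.91, 5.36 and 4.32 in marrow, a difference of 4.46 ± 0.56 (adjusted p = 0.000175, limma). Here every spleen array was far above every marrow array, the second kept Spic probe differed by 2.03, and the call held without spleen replicate 1 at 3.73 ± 0.54 (adjusted p = 0.00259, limma). Dusp2, a nuclear phosphatase that switches off MAP kinases, varied least within tissues, at 9.44, 9.14 and 9.07 in spleen against 5.53, 5.40 and 5.46 in marrow. Its difference was 3.75 ± 0.45 (adjusted p = 0.000161, limma), and 3.63 ± 0.51 without spleen replicate 1 (adjusted p = 0.00259, limma).

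Other genes of this set were more uneven between the spleen arrays. Itgad, the alpha D integrin chain known from red pulp macrophages, was at 13.11, 5.66 and 8.07 in spleen and at 4.59, 4.88 and 4.50 in marrow, so that replicate 1 carried most of its difference of 4.29 ± 1.10 (adjusted p = 0.0315, limma), which was 2.21 without that array. Rgs1, which shortens signalling by G protein-coupled chemokine receptors, was at 13.81, 7.60 and 12.24 in spleen and at 6.64, 5.08 and 7.74 in marrow, and the tissues overlapped. Adam23, a disintegrin without protease activity, was at 10.08, 5.50 and 11.47 in spleen and was not detected on any marrow array, which makes it at least 23.2-fold higher in spleen (adjusted p = 0.0221, limma). Hap1, which binds huntingtin, differed by 4.38 ± 0.67 on the probe used but by 0.18 on its other kept probe. The remaining genes of the 15 with the largest excess were Cd72, Hspa1a, Egr1, Bcl2a1d, Traf1, Slc12a2, Tgm2 and Bcl2a1c, with differences of 3.31 to 3.97. Bcl2a1c and Bcl2a1d are near-identical copies, as are Hspa1a and its neighbour Hspa1b, and their probes may not tell the copies apart.

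**Figure D2:**
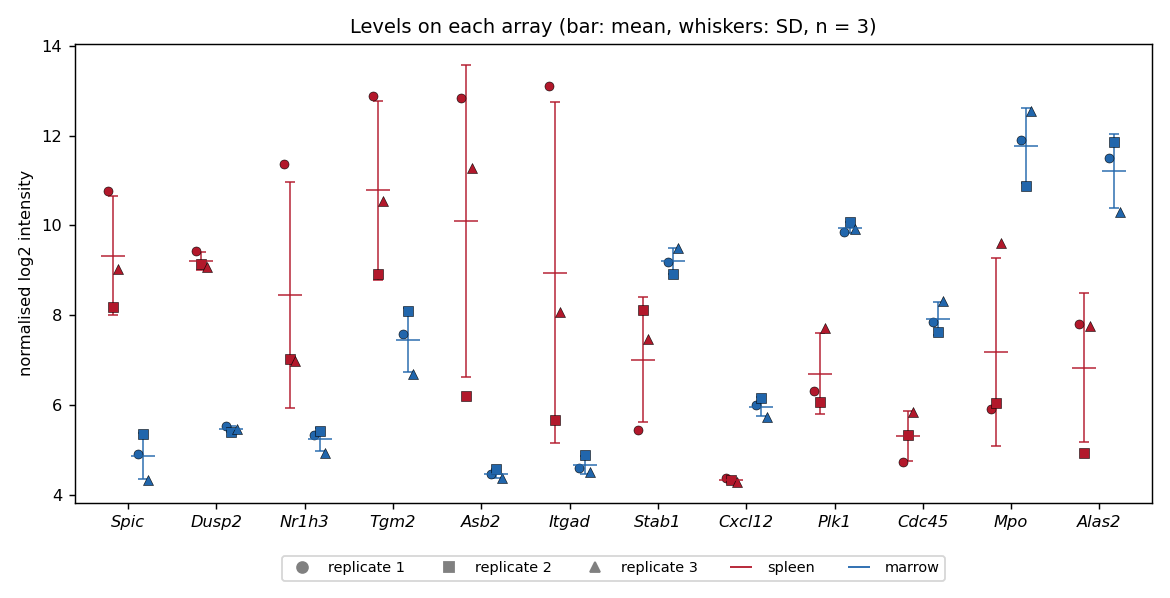
Normalised log2 intensity of 12 genes on each of the 6 arrays, red for spleen and blue for marrow, with a symbol for each replicate, a bar for the group mean and whiskers for the SD (n = 3). Spic, Dusp2, Plk1 and Cdc45 show spleen and marrow well apart on every array, while Asb2 and Itgad spread widely among the spleen arrays.

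Spic was the only called gene of the iron recycling list, which holds markers of red pulp macrophages and genes for handling haem iron. Of its 23 members 1 was called higher and none lower, with a median difference of 0.23 (0.09 without spleen replicate 1) against 0.01 over all genes. Vcam1, the adhesion molecule of red pulp macrophages, was at 10.94, 6.22 and 10.94 in spleen and at 7.49, 7.84 and 6.79 in marrow, and was not called (adjusted p = 0.324, limma). Hmox1, which breaks down haem, was at 9.29, 8.04 and 6.77 in spleen against 6.81, 7.20 and 6.29 in marrow, and Slc40a1, the iron exporter ferroportin, at 11.47, 7.04 and 10.22 against 9.29, 9.77 and 7.99. Vcam1, Hmox1 and Slc40a1 all overlapped between tissues, with spleen replicate 1 the highest array for Hmox1 and Slc40a1. Slc11a1, a metal transporter of phagosomes, differed by 1.21 ± 0.40 (adjusted p = 0.0829, limma), and Treml4 by 2.46 ± 0.75 (adjusted p = 0.0625, limma).

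The liver X receptor gene Nr1h3, needed in mice for marginal zone macrophages of the spleen, was at 11.36, 7.02 and 6.98 in spleen against 5.34, 5.41 and 4.94 in marrow. Its difference was 3.22 ± 0.76 (adjusted p = 0.0209, limma), 1.77 without spleen replicate 1, and 0.36 on its other kept probe, which was dim (mean level 4.30). Siglec1, the sialic acid receptor CD169, was low in both tissues, at 5.91, 5.62 and 4.70 in spleen and at 4.39, 4.69 and 4.32 in marrow, and was called at 0.94 ± 0.25 (adjusted p = 0.0376, limma). These were the 2 calls among 10 marginal zone macrophage genes (median 0.15), neither of which held without spleen replicate 1 (median 0.36). Of 18 liver X receptor genes, Nr1h3 alone was called (median 0.03), and none without spleen replicate 1 (median -0.10), with Abcg1, a cholesterol exporter, at 1.53 ± 0.50 (adjusted p = 0.0776, limma). The 24 macrophage identity genes held no call at the adjusted threshold (median 0.24, and 0.14 without spleen replicate 1), and Mertk, which binds dying cells, was at 9.27, 6.16 and 6.80 against 5.79, 6.02 and 5.25.

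Receptors and bridging factors for dying cells went both ways. Of 22 such genes 3 were called higher and 2 lower in spleen (median 0.24), and none without spleen replicate 1 (median 0.31). Havcr2, the phosphatidylserine receptor Tim-3, was at 9.91, 8.83 and 9.40 in spleen and at 6.23, 6.80 and 5.35 in marrow, a difference of 3.25 ± 0.67 (adjusted p = 0.0128, limma), and its second probe differed by 3.08. Tgm2, a transglutaminase that aids engulfment, was at 12.89, 8.92 and 10.55 against 7.57, 8.09 and 6.69, with 3.34 ± 0.79 (adjusted p = 0.0209, limma). Its other kept probe, which was dim (mean level 4.78), gave 0.93. Stab1, a scavenger receptor, ran the other way at 5.44, 8.11 and 7.47 in spleen against 9.18, 8.92 and 9.50 in marrow, a difference of -2.19 ± 0.57 (adjusted p = 0.0329, limma), with -0.41 and -0.03 on its other, dimmer probes. The groups did not overlap for Havcr2, Tgm2 or Stab1, and the extreme spleen value was replicate 1 in each. The alpha V integrin Itgav was also higher, by 1.40 ± 0.37 (adjusted p = 0.0335, limma).

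Integrins and adhesion molecules had 5 of 24 members called higher and 1 lower (median 0.42, and 0.435 with no call without spleen replicate 1). Besides Itgad and Itgav these included Itgax, the CD11c chain of dendritic cells and some macrophages. Itgax was at 7.58, 4.74 and 6.21 in spleen and not detected on any marrow array, so it was at least 3.25-fold higher in spleen (adjusted p = 0.0221, limma). The collagen receptor chain Itga1 was lower, at 4.36, 5.33 and 5.01 against 6.43, 6.06 and 6.45 (difference -1.42 ± 0.31, adjusted p = 0.0158, limma). Of 19 dendritic cell genes, Itgax and Batf3 were called (median 0.31, and 1.10 with no call without spleen replicate 1). Batf3 was at 9.93, 8.41 and 9.12 in spleen against 6.77, 7.13 and 6.42 in marrow, a difference of 2.38 ± 0.67 (adjusted p = 0.0447, limma). The defining dendritic cell genes Flt3 and Xcr1 were not detected on any of the 6 arrays, and Zbtb46 was at 4.61, 5.11 and 8.58 in spleen against 4.58, 4.20 and 4.15 in marrow.

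Early response genes, which growth factors or stress switch on within minutes, were the list with the most members called higher in spleen. Of 30 tested, 8 were called higher and 1 lower, and the median difference was 0.97 (1.00 without spleen replicate 1, with all 3 spleen list means, 8.20 to 9.08, above the marrow ones, 7.21 to 7.82). Without that array 1 of the 9 calls held, Dusp2. Besides Dusp2 and Rgs1 they held Klf2, a transcription factor of resting and patrolling leukocytes, at 12.09, 11.30 and 10.64 against 9.68, 9.78 and 9.43 (difference 1.72 ± 0.32, adjusted p = 0.00768, limma). Nfkbiz, an atypical inhibitor of NF-kappaB, was at 11.97, 10.58 and 10.96 against 9.15, 8.92 and 9.41 (difference 2.01 ± 0.41, adjusted p = 0.0128, limma). Both were separated on every array.

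Of 19 genes of non-classical monocytes, the patrolling Ly6C-low type, Klf2, Hes1 and Dusp5 were called higher in spleen. Of the 19, 16 lay above 0 and 3 below, against 6112 and 5825 of the 11937 genes tested (median 1.00, and 0.94 with no call without spleen replicate 1). Among those not called were Cx3cr1 at -1.15 (adjusted p = 0.708, limma), Itgal at 0.19, Spn at 0.21 and Ace at 1.15. Klf2 is also on the early response list. Hes1, a target of Notch, was at 8.17, 7.34 and 6.88 in spleen and at 4.54, 4.62 and 4.47 in marrow, a difference of 2.92 ± 0.52 (adjusted p = 0.00659, limma). The list mean was 8.20, 8.71 and 8.09 in spleen and 7.40, 7.58 and 7.02 in marrow. No classical monocyte gene was called of 19 (median -1.43, but -0.40 without spleen replicate 1). Their list mean was 7.11, 10.22 and 9.83 in spleen and 10.34, 10.31 and 10.28 in marrow, so that spleen replicate 1 alone lay far below. Ly6c1, the surface marker of that type, was at 6.19, 12.75 and 12.04 against 12.66, 12.74 and 12.72, and the chemokine receptor Ccr2 at 4.75, 10.48 and 9.10 against 9.78, 10.10 and 9.32. Ly6c1 has a near-identical copy, Ly6c2, which its probe may not tell apart.

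The same array also held nearly all of the complement signal. Of 18 complement genes Itgax alone was called (median 0.20, and 0.05 without spleen replicate 1, with no call). C1qc, a chain of the C1q complex that macrophages make, was at 13.12, 4.55 and 7.06 in spleen and at 5.31, 5.86 and 4.69 in marrow (adjusted p = 0.21, limma). C1qa was at 10.68, 4.24 and 5.15 in spleen and not detected in marrow, and Cxcl13, the chemokine of B cell follicles, at 9.49, 4.24 and 4.22 in spleen and likewise not detected in marrow. Replicate 1 was high and replicate 2 at the marrow level for each. Class II genes of antigen presentation ran the opposite way within spleen. Their list mean was 7.56, 8.90 and 10.57 in spleen and 8.40, 8.47 and 7.94 in marrow, with 16 of 17 genes above 0 and none called (median 0.57, and 1.35 without spleen replicate 1).

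**Figure D3:**
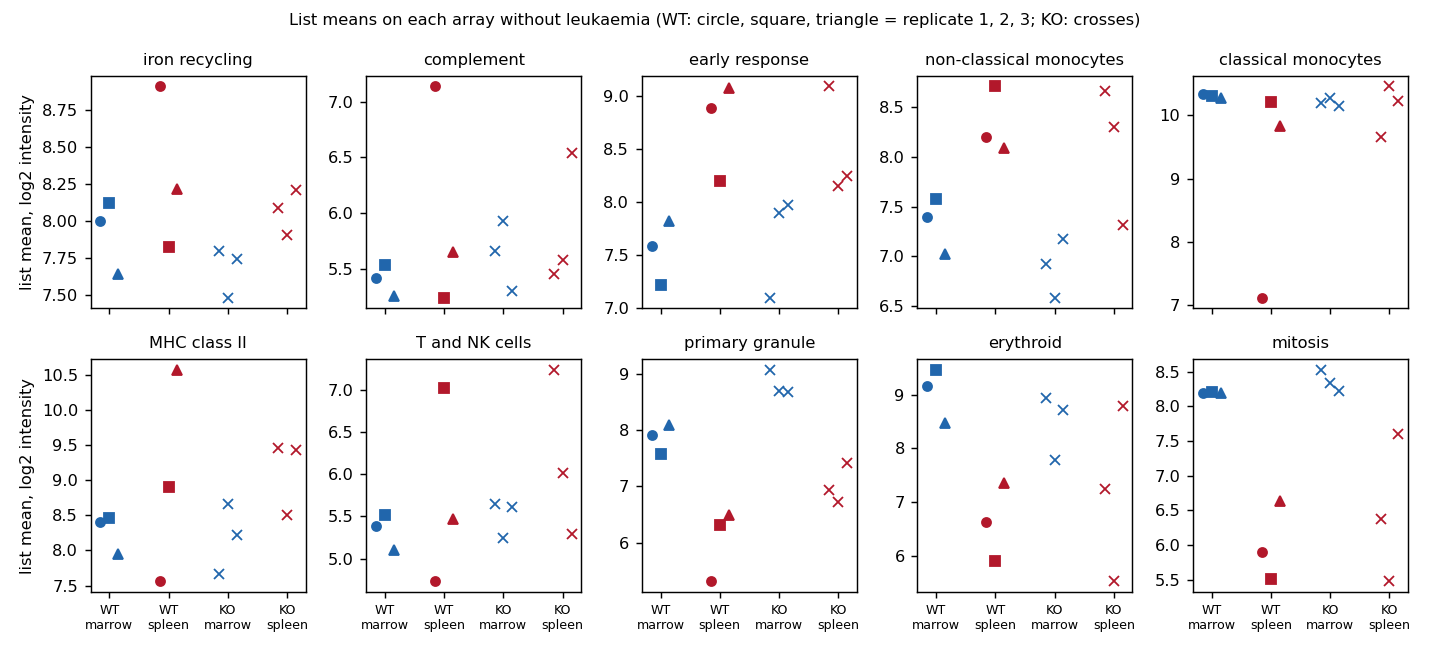
Mean normalised log2 intensity over the tested members of 10 gene lists, 1 panel per list with its own y axis, on each non-leukaemic array of both genotypes (red spleen, blue marrow). Mitosis, erythroid and primary granule means lie lower on every wild-type spleen array than on any wild-type marrow array, and classical monocyte genes are low on spleen replicate 1 alone.

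The list with the most called members was cell division. Of 30 mitosis genes 22 were called lower in spleen, none higher, and all 30 lay below 0, with a median of -2.49 against 0.01 over all genes. The list mean was 5.90, 5.52 and 6.64 in spleen and 8.20, 8.21 and 8.19 in marrow, so the marrow arrays were nearly equal and spleen replicate 3 was the closest to them. Without spleen replicate 1 the median was -2.34 and all 30 stayed below 0, but none passed the adjusted threshold. Plk1, the kinase that drives spindle assembly and mitotic exit, was at 6.31, 6.07 and 7.72 in spleen and at 9.86, 10.08 and 9.91 in marrow. Its difference was -3.25 ± 0.64 (adjusted p = 0.0114, limma), and -3.05 without spleen replicate 1 (adjusted p = 0.0807, limma).

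Aurka, the kinase of spindle poles, was at 5.99, 6.17 and 7.36 in spleen and at 9.20, 9.36 and 9.34 in marrow (difference -2.79 ± 0.56, adjusted p = 0.0128, limma). Kif11, the kinesin that pushes spindle poles apart, was at 4.74, 4.64 and 6.13 against 7.999, 7.92 and 8.16 on the probe used (difference -2.86 ± 0.58, adjusted p = 0.0128, limma), and its other, dim probe gave -0.06. The actin-ring protein gene Anln differed by -2.68 ± 0.55, and the microtubule-binding gene Nusap1 by -3.39 ± 0.69 on the probe used and by -0.66 and -0.95 on 2 dim ones. Pbk, Depdc1b and Cdkn3, which are also known from dividing cells, were among the 15 genes furthest below marrow, at -3.20 to -3.33. Each of these genes was lower on all 3 spleen arrays than on any marrow array.

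Many mitosis genes share the cell cycle genes homology region (CHR), a promoter element bound by MuvB complexes, often beside CCAAT boxes bound by NF-Y. RefSeq promoter windows (GRCm38.p6, 250 bases before to 50 after the start) were searched on both strands for TTTGAA and CCAAT, motifs picked after the mitosis result was known. The motif TTTGAA was in 22 of the 26 windows of the 24 mitosis genes that matched (84.6%), against 12.5% of the 12273 windows of genes tested and 17.9% of all 32851 windows. CCAAT was in 19 of the 26 (73.1%), against 37.7% of genes tested. In windows of the erythroid list TTTGAA was in 5.26% and CCAAT in 47.4%, and in those of the iron recycling list 20.8% and 37.5%. Of the windows of all genes called lower in spleen 31.2% held TTTGAA and 53.1% CCAAT, and of those called higher 12% and 36.4%. The windows of 5 named mitosis genes, which hold both motifs, 1 of them or neither, show them in capitals and as read 5′ to 3′ on the gene's strand, where TTCAAA and ATTGG are the motifs on the other strand: Plk1 (chr7:122159185-122159484, + strand), Aurka (chr2:172370521-172370820, - strand), Anln (chr9:22389157-22389456, - strand), Kif11 (chr19:37376132-37376431, + strand) and Nusap1 (chr2:119618048-119618347, + strand).
Plk1: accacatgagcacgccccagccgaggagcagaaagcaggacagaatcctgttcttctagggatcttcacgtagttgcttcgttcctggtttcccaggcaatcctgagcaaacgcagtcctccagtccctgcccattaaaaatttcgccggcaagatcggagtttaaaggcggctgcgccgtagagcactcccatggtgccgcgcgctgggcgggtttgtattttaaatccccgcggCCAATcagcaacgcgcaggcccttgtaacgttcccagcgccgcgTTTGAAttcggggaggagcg
Aurka: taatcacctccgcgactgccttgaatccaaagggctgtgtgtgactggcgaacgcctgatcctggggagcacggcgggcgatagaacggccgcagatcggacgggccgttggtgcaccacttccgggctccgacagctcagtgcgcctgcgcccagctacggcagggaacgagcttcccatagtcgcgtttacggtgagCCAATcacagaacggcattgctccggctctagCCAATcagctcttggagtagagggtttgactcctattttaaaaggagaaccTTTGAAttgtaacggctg
Kif11: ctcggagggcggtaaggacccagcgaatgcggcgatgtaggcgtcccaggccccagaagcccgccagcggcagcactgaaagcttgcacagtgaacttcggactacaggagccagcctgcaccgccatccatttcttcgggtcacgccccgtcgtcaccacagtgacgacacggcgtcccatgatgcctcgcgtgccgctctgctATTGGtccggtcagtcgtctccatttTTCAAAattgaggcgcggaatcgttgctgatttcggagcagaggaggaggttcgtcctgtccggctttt
Anln: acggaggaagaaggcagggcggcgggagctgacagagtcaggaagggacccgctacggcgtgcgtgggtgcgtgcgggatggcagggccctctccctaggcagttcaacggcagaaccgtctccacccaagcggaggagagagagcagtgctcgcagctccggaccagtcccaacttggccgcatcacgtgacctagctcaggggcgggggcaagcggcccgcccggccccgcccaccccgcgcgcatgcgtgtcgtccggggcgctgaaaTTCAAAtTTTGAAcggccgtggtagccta
Nusap1: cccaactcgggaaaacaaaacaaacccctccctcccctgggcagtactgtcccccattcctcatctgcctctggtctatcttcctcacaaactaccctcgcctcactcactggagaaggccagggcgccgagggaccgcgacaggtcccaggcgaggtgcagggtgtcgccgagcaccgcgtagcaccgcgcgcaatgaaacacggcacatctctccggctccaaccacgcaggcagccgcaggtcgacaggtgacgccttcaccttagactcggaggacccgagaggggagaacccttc
Plk1 and Kif11 have 1 of each motif and Aurka 1 TTTGAA and 2 CCAAT, close to the start. The window of Anln has TTTGAA 2 times and no CCAAT, and that of Nusap1, whose difference was the largest of the 5, holds neither. Sites of GATA factors and of the transcription factor PU.1 were searched as well. The GATA site was in 15.8% of erythroid list windows, against 2.03% of genes tested. Mitosis and iron recycling windows did not hold it. Genes called higher had it in 1.78% of windows and genes called lower in 2.73%. The PU.1 site was in 15.4% of mitosis, 13.2% of erythroid and 8.33% of iron recycling windows, against 13.8% of genes tested. For genes called higher and lower it was in 17.8% and 10.2%. A match describes the letters only.

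DNA replication genes were lower in spleen as well. Of 41 tested, 8 were called lower and none higher, and 40 lay below 0 (median -1.32). Without spleen replicate 1 the median was -1.26 and none was called. Cdc45, which joins the replicative helicase, was at 4.73, 5.34 and 5.85 in spleen and at 7.84, 7.62 and 8.32 in marrow, a difference of -2.62 ± 0.56 (adjusted p = 0.0148, limma). Rrm2, the regulated subunit of ribonucleotide reductase, Tyms, which makes thymidylate, and Mcm10, which loads polymerase alpha, differed by -2.76, -2.66 and -2.54. Spleen lay below marrow on every array for all 4. Rrm2, Tyms and Mcm10 each had at least 1 dim probe with a difference between -0.23 and 0.04. The brightest of their other kept probes differed by -2.68, -1.46 and -1.96.

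Genes of red cell precursors had lower levels in spleen, but few passed the test. All 39 erythroid genes lay below 0, with a median of -2.34 (-2.54 without spleen replicate 1), and 2 were called, neither of them without that array. The list mean was 6.63, 5.90 and 7.35 in spleen and 9.15, 9.46 and 8.47 in marrow. Alas2, the first enzyme of haem synthesis in red cells, was at 7.81, 4.92 and 7.77 in spleen against 11.50, 11.87 and 10.29 in marrow, a difference of -4.39 ± 1.25 (adjusted p = 0.0484, limma). Nfe2, a transcription factor of red cells and platelets, was at 7.02, 10.50 and 9.53 against 11.19, 11.22 and 11.01 (difference -2.12 ± 0.49, adjusted p = 0.018, limma), and -1.13 without spleen replicate 1. Klf1, a master regulator of red cells, was at 5.47, 4.66 and 7.37 against 10.05, 10.26 and 8.85 (adjusted p = 0.059, limma). Slc6a9, the glycine transporter that feeds haem synthesis, and Dmtn, of the red cell membrane skeleton, were called at -4.57 and -4.34. Fhdc1, Pdzk1ip1 and Fn3k, a kinase that repairs glycated proteins, complete the 15 genes furthest below marrow, at -3.24 to -3.42. Haemoglobin RNA was bright in both tissues, with Hba-a1 at 12.87, 9.67 and 12.98 in spleen and at 14.02, 13.95 and 14.06 in marrow, and its probe may not tell Hba-a1 from its copy Hba-a2.

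Granule genes of developing neutrophils and eosinophils gave few calls, all of them lower in spleen. Of 15 primary granule genes 14 lay below 0 and 2 were called (median -1.42, and -1.31 with no call without spleen replicate 1). Mpo, the peroxidase made at the promyelocyte stage, was at 5.90, 6.05 and 9.61 in spleen and at 11.90, 10.88 and 12.54 in marrow, a difference of -4.59 ± 1.15 (adjusted p = 0.0289, limma). Ctsg, the protease cathepsin G, was at 5.06, 5.60 and 8.23 against 10.27, 9.19 and 11.05, a difference of -3.88 ± 0.98 (adjusted p = 0.0305, limma). Both were lower on every spleen array, and spleen replicate 3 was the closest to marrow. Secondary granule genes, of later neutrophils, lay below 0 for 25 of 27 with no call (median -1.10, and -0.73 without spleen replicate 1). Ltf, lactoferrin, was at 6.61, 9.84 and 7.49 against 12.40, 12.97 and 10.07 (adjusted p = 0.113, limma). Among 18 eosinophil genes (median -1.02, and -0.75 with no call without spleen replicate 1) only Prg2, the major basic protein, was called, at 6.68, 8.73 and 7.29 against 12.89, 13.28 and 10.15 (difference -4.54 ± 1.23, adjusted p = 0.0391, limma). Rnase2a, of the family of eosinophil ribonucleases, was called as well (-3.65 ± 1.02, adjusted p = 0.0448, limma), but its close relatives may share its probe.

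The mitosis, replication, erythroid, primary and secondary granule lists all had negative medians. Markers of other cell types were present in the sorted cells. The erythroid markers Klf1, Alas2, Slc4a1 and Hba-a1 and the neutrophil markers Ltf, Camp, Ngp, Mpo and Elane were detected on all 6 arrays. Erythroid and primary granule list means were lower on every spleen array than on any marrow array, like the mitosis mean, and their part in the mitosis result was not tested. In sorted bulk samples fewer cells of a type and less RNA per cell cannot be told apart. Of the lymphoid markers, Pax5 was not detected on any array, Ms4a1 on 1 marrow array only, and Cd79b, of the B cell receptor, stood at 10.05, 6.87 and 6.995 in spleen and at 6.41, 6.45 and 6.75 in marrow. Of 21 B cell genes Cd72 alone was called, at 11.52, 6.63 and 8.90 against 5.10, 5.16 and 4.87 (difference 3.97 ± 0.80, adjusted p = 0.0128, limma), and the list median was -0.02 (0.03 with no call without spleen replicate 1). T and NK cell genes had no call among 27 (median 0.36, and 0.73 without spleen replicate 1), and their list mean was 4.73, 7.02 and 5.47 in spleen against 5.38, 5.52 and 5.10 in marrow, highest on spleen replicate 2. Of the T and NK defining markers, Ncr1 was not detected on any array and Lck had no named probe. Cd3d was detected on 1 spleen and 3 marrow arrays, Cd3e on 1 and 2, and Klrb1c on 1 and 1.

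Genes of vessels and stroma also went both ways, with 3 of 24 called higher and 1 lower (median -0.01), and none without spleen replicate 1 (median -0.01). Cxcl12, the chemokine with which marrow stroma retains blood precursors, was at 6.00, 6.16 and 5.73 in marrow and not detected on any spleen array, so it was at least 2.88-fold lower in spleen (adjusted p = 0.0148, limma), although a second dim probe differed by 0.08. Vwf, the clotting factor of endothelium and platelets, was at 6.06, 6.87 and 6.43 in spleen against 4.97, 5.18 and 4.66 in marrow (difference 1.51 ± 0.36, adjusted p = 0.0225, limma). Esam, an adhesion molecule of endothelium, was at 7.67, 4.71 and 9.003 in spleen and not detected in marrow, at least 6.27-fold higher (adjusted p = 0.0334, limma). Pecam1, also on endothelium and leukocytes, was higher by 2.19 ± 0.59 (adjusted p = 0.0373, limma) and by 0.91 without spleen replicate 1. The endothelial marker Cdh5 was not detected on any spleen array and was detected on all 3 marrow arrays. Its difference was -0.31, and it was not called (adjusted p = 0.109, limma). Kdr, another endothelial marker, was detected on 1 spleen array and on no marrow array.

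**Figure D4:**
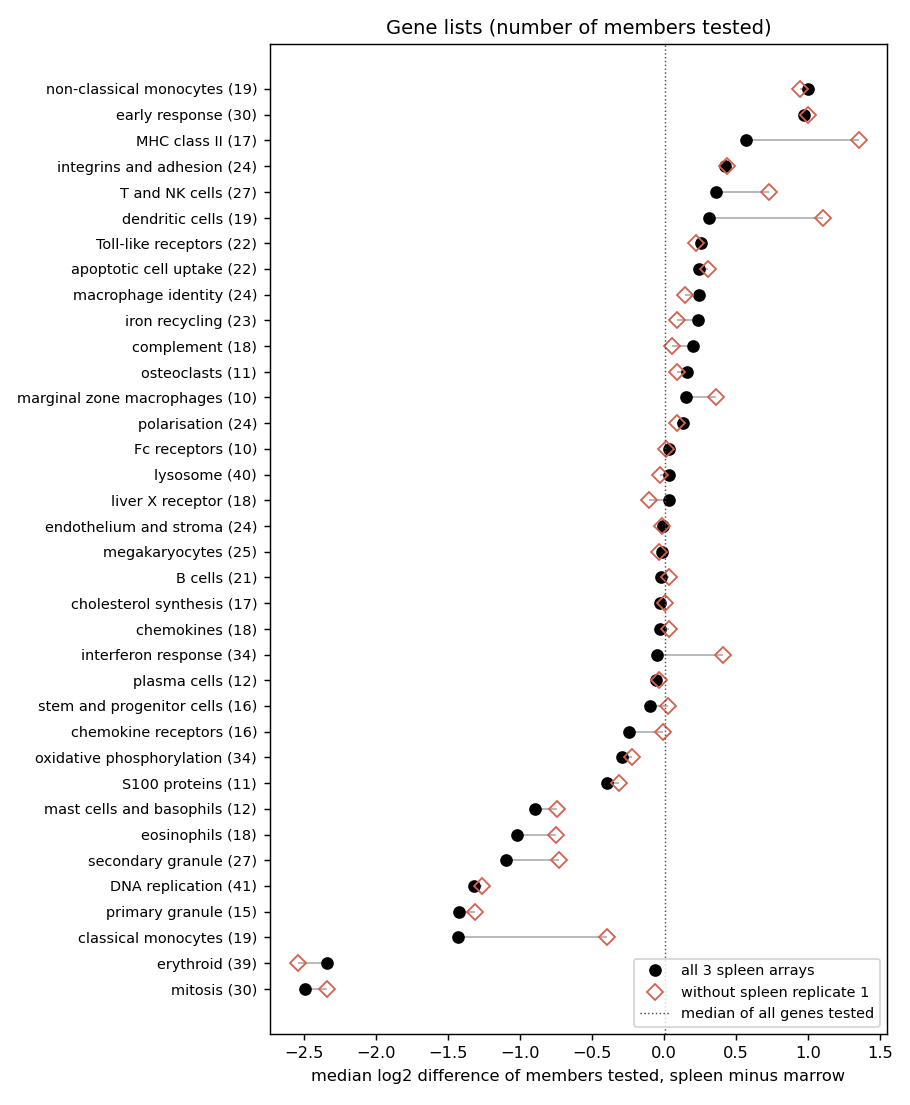
Median log2 difference (spleen minus marrow) over the tested members of each of 36 gene lists, with the number tested in parentheses, over all 3 spleen arrays (black) and without spleen replicate 1 (open diamonds). Mitosis and erythroid genes lie lowest either way, and the medians of classical monocytes, class II, dendritic cell and interferon response genes shift most when that array is left out.

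Without spleen replicate 1, 9 genes were called higher (0.0754%) and 4 lower (0.0335%), and 12 of these 13 were among the 461. They are named here because they passed both fits, a choice made after their values were seen. Higher in spleen were Spic, Dusp2, Hap1, Rundc3b, Zfp819, Klhdc1, Fcrl1 and Pmaip1, and lower were H2ax, Mxd3, Kmt5a and Gm7367. Mxd3, a partner of Max found in dividing cells, differed by -1.91 (-1.85 without that array), H2ax, the histone variant of DNA breaks, by -2.84 (-2.46), and Kmt5a, which methylates histone H4, by -1.64 (-1.25). Pmaip1, the death-promoting protein Noxa, was higher by 2.35 with spleen replicate 1 and by 3.05 without it. Only Tlr11 was called without the array and not with it, at 1.43 against 0.67.

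The tissue difference in other mice gave the same genes values on arrays outside the 2 compared groups. Those arrays entered the fit only through the estimate of spread. In Mif knockout mice without leukaemia no gene was called between spleen and marrow in limma, with 1268 (10.6%) at an unadjusted p under 0.05. Without knockout spleen replicate 6 it was 166 genes, and 2 without replicate 4. Of the 461 genes 428 (92.8%) had the same direction there, against 64% of all genes tested. The 246 genes lower in wild-type spleen had a median of -1.07 in the knockout, against -1.62, and the 215 higher genes 0.37 against 1.12. Because the genes were chosen on their wild-type values, smaller medians on other arrays are partly set by that choice. The mitosis list had a median of -2.16 in the knockout, Plk1 -2.48 ± 0.64, and Mpo -4.37 ± 1.15, whereas Spic was at 2.46 ± 0.56 and Asb2 at 2.23 ± 1.10. The test of the difference between the genotypes called no gene, with 535 (4.48%) at an unadjusted p under 0.05. Leaving out wild-type spleen replicate 2 brought 37 genes past the adjusted threshold, and leaving out replicate 1 none.

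**Figure D5:**
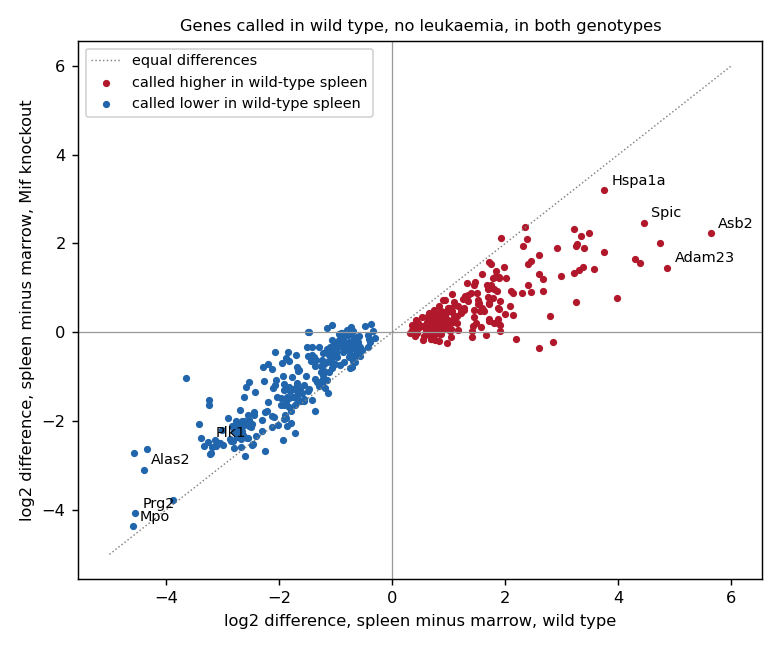
Log2 difference, spleen minus marrow, of the 461 called genes in wild type (x axis) and in Mif knockout mice without leukaemia (y axis), red for genes called higher and blue for genes called lower in wild-type spleen. Most points, 428 of 461, have the same sign in both, and the dotted line marks equal differences.

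The labels give 2 to 5 months for leukaemic mice, younger than the mice without leukaemia. Whether these ages were exchanged in the labels is not known, and age and leukaemia cannot be told apart here. In leukaemic wild-type mice 2 genes were called between spleen and marrow (0.0168%), with 1227 (10.3%) at an unadjusted p under 0.05. They were Cldn10 and Col18a1, both higher in spleen and named after their values were seen. The count was 9 and 23 without leukaemic marrow replicates 1 and 2, and 1 without each of the other 3. It was 7, 0 and 34 without leukaemic spleen replicates 1, 2 and 3. Of the 461 genes 404 (87.6%) had the same direction, against 58.9% of all genes. The median of the 246 lower genes was -0.46 and that of the 215 higher genes 0.33, with the same limit from the choice of genes. The mitosis median was -0.69 with leukaemia, against -2.49 without, and Plk1 was at -0.70. The mitosis list mean was 6.53, 7.46 and 8.27 on the leukaemic spleen arrays. On the leukaemic marrow arrays it was 8.32, 8.45, 7.19, 8.36 and 8.11. Leukaemic spleen replicate 3 thus lay among the marrow arrays, and marrow replicate 3 below a spleen array. The part of these arrays in the smaller median was not tested. The erythroid and DNA replication medians were 0.08 and 0.09 with leukaemia, against -2.34 and -1.32 without. The test of the difference between leukaemic and non-leukaemic tissue differences called no gene, with 1261 (10.6%) at an unadjusted p under 0.05, and 25 genes past the adjusted threshold without spleen replicate 2 of the mice without leukaemia.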

How the data were processed

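Sorted cells were lysed in TRIzol and their RNA labelled as biotin cRNA, per the labels' protocols. A first deposited table lists linear probe intensity from the authors. It also lists a deposited detection p-value per probe, for 45281 probes on 30 arrays, and no header or label names its software. The other deposited table has log2 values from the authors. Partek, without a version, appears in the submitters' processing notes. Each log2 column had a median of 6.41, and its correlation with log2 intensity was 0.99 to 0.997. This settled scale and direction but not centring, so the log2 table served as an alternative only.

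From the intensities, neqc (limma 3.58.1, R 4.3.3, offset 16, controls inferred from detection) gave corrected, quantile-normalised values. Kept were 23515 probes with a detection p under 0.05 on 3 or more arrays, and the brightest kept probe represented its gene. Platform annotation named 1 symbol for 34885 probes, several for 18 (left unnamed) and none for 10378. Of the named probes, 34807 were matched by RefSeq gene ID (GRCm38.p6) and took the symbol given there. All 30 arrays entered 1 limma fit with 8 groups, adjusted by Benjamini-Hochberg at 0.05 and tested on simulated data. Precision is limited by the small number of arrays. A fold called "at least" sets the brighter group against the dimmest detected signal.

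Members and the 37 lists were chosen with earlier results of these data known, and list counts and medians are descriptions. The rule for named genes took Mif, Adgre1 and Xist, the 15 largest called differences each way among genes detected on at least 2 arrays of the brighter group, and up to 4 members of each list with the smallest p. Defining markers were fixed beside it, and other genes were chosen after their values were seen. Alternatives changed the values (the authors' log2, no background correction, 75th percentile), the filter (none, strict), the model (slide fixed or random, replicate block, compared groups only, array weights, Xist as a covariate), the probes (all kept) and the arrays (each left out in turn).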

Additional observations from a re-analysis of the deposited data

How the results depend on the processing

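All 461 genes kept their direction under every alternative in which they could be fitted (391 of 391 under the strict filter), and no called named gene reversed. The alternatives used the same arrays that gave the calls, so the kept directions are no separate support. Of the 99 named genes that were not called, 14 changed sign under at least 1 alternative, among them 10 without spleen replicate 1, including Mif, Xist and Fcgr2b. The count was 411 with no background correction, 335 with 75th percentile scaling (which moved the median of all genes to -0.119), 313 with no filter, 456 with the strict filter, 495 with slide as a random block and 502 with Xist as a covariate (182 higher, 320 lower). It was 1929 on the authors' log2 values, 737 with slide as a fixed block, 306 in the compared groups only (54 higher, 252 lower), 1483 with array weights and 767 over all kept probes. Leaving out 1 array gave 13 to 853. With the replicate block no gene was called, with 2067 at an unadjusted p under 0.05. Deviations of same-numbered arrays correlated at -0.0231, 0.168 and 0.0976, and the arrays numbered 1 differed in sex by Xist and Eif2s3y. The numbers are therefore not read as pairs. For the Mif knockout the count of 0 became 765 (authors' values), 171 (slide fixed), 515 (array weights), 2 (no filter) and 1 (75th percentile, strict filter or slide random), and 0 to 166 leaving out 1 array, the highest without spleen replicate 6. No paired analysis was possible there because the tissues share no replicate numbers. For leukaemic wild type the count of 2 became 197 (authors' values), 269 (array weights), 4 (75th percentile), 1 (no background correction, Xist or all probes) and 0 (strict filter, slide fixed, replicate block or compared groups only), and 0 to 34 leaving out 1 array. The differences between tissue differences stayed at 0 except with array weights (2 for genotype, 17 for leukaemia) and leaving out 1 array (0 to 37 and 0 to 25). The causes were not tested. Of the values of called named genes under alternatives, 717 stayed called and 359 did not. Leave-one-out fits for the other mice were added after seeing the data. With 3 arrays a tissue, and 1 standing apart, a gene that was not called is not shown to be equal.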

Other observations

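Several further groups were described by their counts alone. Genes of macrophage polarisation had 3 of 24 members called higher in spleen and none lower (median 0.13, and 0.09 with no call without spleen replicate 1). Il1b, the inflammatory cytokine, was at 10.12, 8.67 and 9.50 in spleen against 7.13, 7.03 and 6.79 in marrow (difference 2.45 ± 0.68, adjusted p = 0.0421, limma), and Cd274, the checkpoint ligand PD-L1, at 10.44, 7.63 and 9.76 against 6.07, 6.37 and 5.76 (3.21 ± 0.88, adjusted p = 0.0414, limma). Socs2, a feedback inhibitor of cytokine signalling, was higher by 1.99 ± 0.50 (adjusted p = 0.0296, limma). All 3 were above marrow on every spleen array. Of 40 lysosome genes Acp2, an acid phosphatase, was called at 1.68 ± 0.44 (adjusted p = 0.0329, limma), and the list median was 0.03 (-0.03 with no call without spleen replicate 1).

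Oxidative phosphorylation genes lay below 0 for 31 of 34 with no call (median -0.29, and -0.23 without spleen replicate 1), and Atp5o, of the ATP synthase, was at 10.31, 10.94 and 11.02 in spleen against 11.46, 11.27 and 11.50 in marrow (adjusted p = 0.0533, limma). S100a13 was the 1 call among 11 S100 genes (median -0.40, and -0.32 with no call without spleen replicate 1), at -0.72 ± 0.19 (adjusted p = 0.0363, limma), and S100a8, of the neutrophil calprotectin pair, was at 9.51, 11.21 and 9.94 against 13.15, 13.39 and 11.81 (adjusted p = 0.0977, limma). Cxcl12 was the 1 call among 18 chemokine genes (median -0.03, and 0.04 with no call without spleen replicate 1). Among 25 megakaryocyte genes Vwf was called higher, and Nfe2 and P2rx1 lower (median -0.02, and -0.03 with no call without spleen replicate 1).

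Interferon response genes had no call among 34, and their median was -0.05 over all arrays and 0.41 without spleen replicate 1. Over all arrays no member was called in the following lists, whose medians are given with all arrays and then without spleen replicate 1: 17 cholesterol synthesis genes (-0.03 and 0.01), 12 mast cell and basophil genes (-0.90 and -0.74), 12 plasma cell genes (-0.06 and -0.04), 16 stem and progenitor genes (-0.10 and 0.03), 11 osteoclast genes (0.16 and 0.09), 16 chemokine receptor genes (-0.24 and -0.01), 22 Toll-like receptor genes (0.26 and 0.22), 10 Fc receptor genes (0.03 and 0.02) and the 4 sex-linked genes (0.11 and 0.52). Cxcr4, the receptor of Cxcl12, was at 5.26, 9.62 and 8.82 in spleen against 9.79, 9.69 and 9.53 in marrow, and Fcgr2b, the inhibitory Fc receptor, at 6.56, 11.60 and 10.82 against 10.72, 10.86 and 10.14. In both, spleen replicate 1 alone lay far below the rest.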
